A study of Mus musculus with 6 samples.

Results

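The lysosomal genes described here are 38 genes of the lysosome's proton pump, limiting membrane and hydrolases, with their regulator Tfeb. They were found by gene symbol, older synonyms included, among the reporters (array probes) of a deposited intensity table. Reporters were found for 37 of the 38, 48 reporters in all, of 25729 named genes that could be tested. These were 15 proton pump subunits, 5 of 6 membrane proteins, 16 hydrolases and their cofactors, and Tfeb, which the table lists under its older symbol Tcfeb. Lamp1 had no reporter found by these names and enters only the promoter counts.

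The samples were adipose tissue, labelled eWAT, of mice 9 weeks old, 3 of genotype ob/ob and 3 of genotype ob/+. Mice of genotype ob/ob have the obese mutation on both copies of the leptin gene and become obese, and ob/+ mice have it on 1 copy and served as lean controls. Each of 6 two-colour arrays set 1 sample, in Cy5, against a pool of ob/+ RNA, in Cy3, which the table describes as made from 3. The labels give the C57BLKS/J background in the pool channel only and no treatment. Whether every sample is a separate animal is not given, and the spread behind each p-value is that between these samples, which may be technical.

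The lysosome breaks down material brought in by endocytosis, phagocytosis and autophagy. Its pump, the V-ATPase, has a V1 part in the cytosol that splits ATP and a V0 part in the membrane that carries protons, and the acid it makes keeps the hydrolases active. TFEB and its relatives TFE3, MITF and TFEC bind E-box sequences near the starts of many lysosomal genes. In fat, macrophages that take up lipid are known for large lysosomes, while adipocytes use lysosomes mainly for autophagy and turnover.

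The promoters are shown first because the search for that E-box in them does not use the array values. The RefSeq promoter table (build GRCm38.p6) gave windows from 250 bases before to 50 after the start for 34 of the 38 genes. The 7-letter motif TCACGTG, searched on both strands and containing the 6-letter E-box CACGTG, was in a window of 12 of the 34, or 35.3%. It was in 4.29% of the 27025 genes with a window. CACGTG alone was in the same number of these genes, 12, and in 8.09% of all genes. Among genes with array values, 4 of 11 pump subunits, 1 of 5 membrane proteins and 6 of 16 hydrolases had TCACGTG. A match describes these letters only, and no binding was measured. As this E-box is already known from lysosomal genes, its higher share among them is not an independent finding.

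The stretches below belong to all 11 genes with TCACGTG and array values. The first 7 rose in ob/ob, as described further on, and the last 4, Mcoln1, Gaa, Arsa and Gla, passed no test. They are 110 bases long, 5′ to 3′, on the strand of the gene, with the TCACGTG matches of either strand in capitals. They run from base -100, before the start, to base 10, after it, except in Atp6v1a and Gaa, where they run from base -200 to base -91, and in Gla, where they run from base -250 to base -141. In order they lie at chr4:117887320-117887429 (minus strand), chr8:105566055-105566164 (minus), chr17:26676296-26676405 (plus), chr16:44139350-44139459 (minus), chr9:114400978-114401087 (plus), chr11:101069994-101070103 (plus), chr11:119355501-119355610 (minus), chr8:3500419-3500528 (plus), chr11:119267763-119267872 (plus), chr15:89477415-89477524 (minus) and chrX:134601146-134601255 (minus).
Atp6v0b: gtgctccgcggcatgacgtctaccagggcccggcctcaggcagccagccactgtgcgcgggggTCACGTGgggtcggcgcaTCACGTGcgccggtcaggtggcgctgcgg
Atp6v0d1: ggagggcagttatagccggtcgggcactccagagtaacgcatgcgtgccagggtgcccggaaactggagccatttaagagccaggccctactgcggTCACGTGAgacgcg
Atp6v0e: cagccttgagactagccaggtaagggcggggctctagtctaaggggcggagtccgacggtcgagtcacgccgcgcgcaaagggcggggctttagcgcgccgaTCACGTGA
Atp6v1a: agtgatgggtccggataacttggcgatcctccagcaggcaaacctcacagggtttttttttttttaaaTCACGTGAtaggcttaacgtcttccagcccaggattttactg
Glb1: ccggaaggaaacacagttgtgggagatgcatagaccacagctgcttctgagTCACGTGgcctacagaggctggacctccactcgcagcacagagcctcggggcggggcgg
Naglu: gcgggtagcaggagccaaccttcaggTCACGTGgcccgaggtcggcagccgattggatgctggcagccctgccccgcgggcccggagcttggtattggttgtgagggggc
Sgsh: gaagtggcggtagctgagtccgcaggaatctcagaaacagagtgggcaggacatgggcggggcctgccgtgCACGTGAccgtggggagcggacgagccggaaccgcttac
Mcoln1: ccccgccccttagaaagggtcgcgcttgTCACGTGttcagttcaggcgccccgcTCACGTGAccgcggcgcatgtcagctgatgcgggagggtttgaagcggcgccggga
Gaa: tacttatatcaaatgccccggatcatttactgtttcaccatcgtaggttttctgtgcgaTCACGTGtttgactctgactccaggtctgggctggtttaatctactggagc
Arsa: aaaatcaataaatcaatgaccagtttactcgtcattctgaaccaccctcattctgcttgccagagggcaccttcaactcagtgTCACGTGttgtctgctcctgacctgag
Gla: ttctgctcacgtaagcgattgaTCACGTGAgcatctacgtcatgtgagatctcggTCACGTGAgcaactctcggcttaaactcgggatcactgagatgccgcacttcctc

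The core CACGTG lay within 100 bases of the start in these genes except Atp6v1a, Gaa and Gla, where it lay farther before it. In Atp6v0d1 its core CACGTG spanned the start itself, from base -3, and in Atp6v0e it began at base 4. Atp6v0b and Mcoln1 each had 2 E-boxes within 100 bases of the start, and Gla had 2 beginning at bases -227 and -194. The 11 measured genes with TCACGTG had a median log2 fold change of 0.44 in ob/ob, with 7 called higher by the rule given below. Of all genes tested, 12.4% were called higher. The 22 without it had a median of 0.38, with 10 called higher, and they included Tfeb and the largest rises, of Atp6v0a1 and Gusb. Atp6v1b2, Atp6v1c1, Atp6v1g1 and Atp6v1h had no window and are in neither group, and Atp6v1b2 and Atp6v1c1 were called higher. Whether the groups with and without the motif differ was not tested.

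Values below are intensities in the authors' units, which compare samples for 1 reporter but not reporters with each other, and log2 ratios of a sample to the pool. A gene with several reporters is represented by its brightest. A gene is called when its limma p, adjusted over all reporters by the Benjamini-Hochberg method, is under 0.05. Of the 37 genes, 19 rose, 1 fell and 17 did not pass. Over all genes tested, 12.4% were called higher and 12.1% lower, and among the 16473 genes with a mean intensity above 0.1, where 36 of the 37 lie, 15.9% were called higher and 16.5% lower. Rises of at least 1.5-fold numbered 14 (7.28% of all genes), and 5 of these were at least 2-fold (3.57%). The log2 fold change was above 0 in 30 of the 37, against 50.8% of all genes. The median was 0.44, against 0 for all genes.

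The 3 classes differed in how evenly they moved. All 15 pump subunits had positive log2 fold changes, with a median of 0.60, and 9 were called. The 5 membrane proteins had a median of 0.29, with 2 called. The 16 hydrolases and cofactors had a median of 0.37 and the widest spread, from -0.54 to 1.68, with 8 called higher and 1 lower. Without dim reporters, which removed only the very dim Gla from this class, the hydrolase median was 0.53 and the pump median stayed at 0.60. With each gene's dimmest reporter they were 0.48 and 0.45, so the order of these medians depends on the reporters used. The log2 ratios of the ob/ob samples lay wholly above those of the ob/+ samples for 15 of 15 pump subunits, 2 of 5 membrane proteins and 9 of 16 hydrolases, and over all genes for 20.1%. They lay wholly below for 2 of the 37, Ctns and Arsb, and over all genes for 19.7%. No test between the classes was made.

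The counts depend on single arrays, and so do those of all genes. Without ob/+ replicate 1, 10 of the 37 genes were called higher, where 5.95% of all genes were. Without ob/+ replicate 3 there were 12 (6.62% of all genes), and without ob/ob replicate 3 also 12 (6.26%). After quantile normalization of the log2 ratios, 2 of the 37 were called higher, Atp6v0a1 and Atp6v1a, where 1.18% of all genes were. When any of ob/+ replicates 1 and 3 and ob/ob replicates 2 and 3 was left out, 4 or 5 of the 16 hydrolases were called higher. Membrane proteins called higher numbered 0 without ob/+ replicate 1, 1 without ob/+ replicate 2, ob/+ replicate 3 or ob/ob replicate 3, and 3 of 5 without ob/ob replicate 1.

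**Figure D1:**
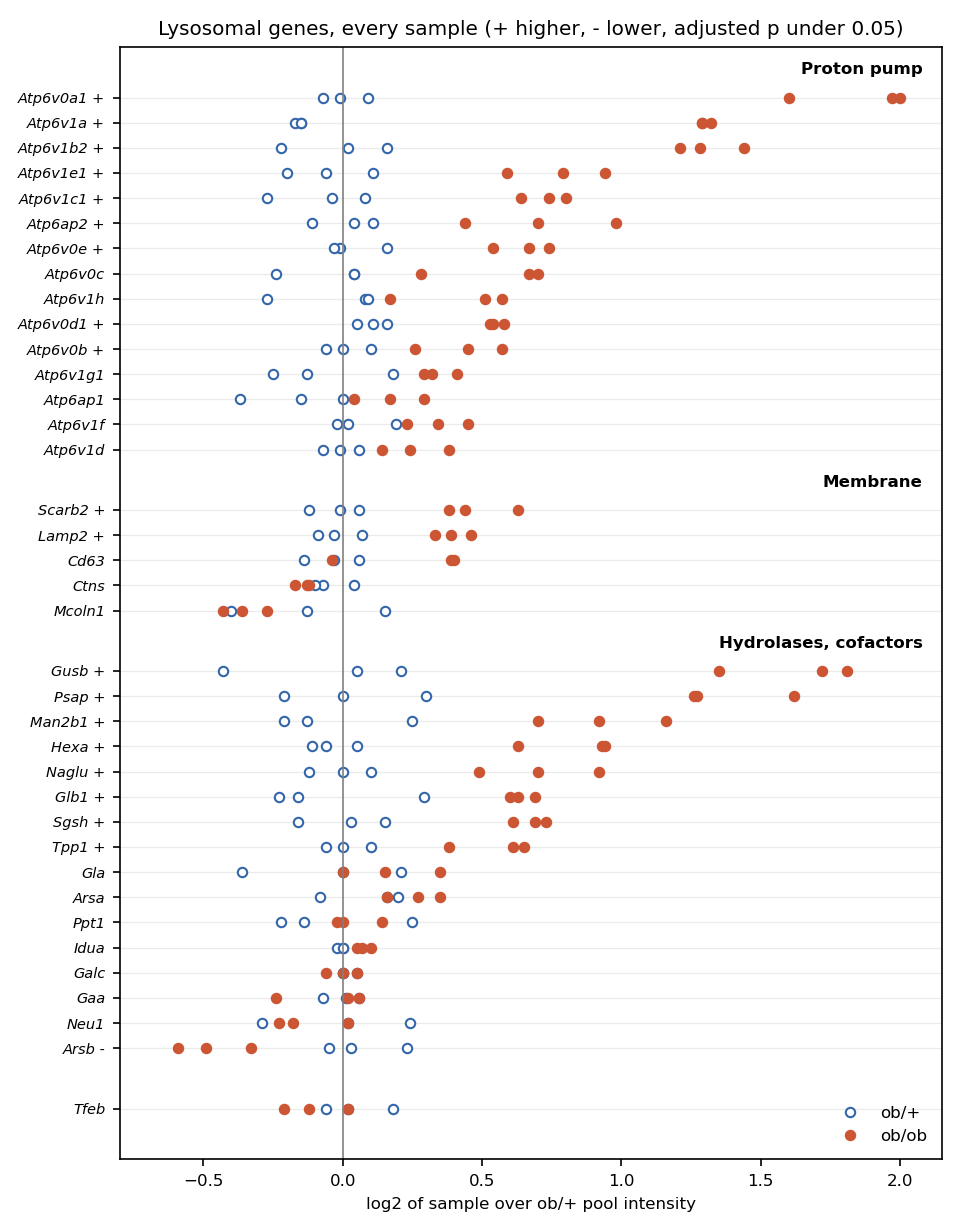
Log2 ratio of each sample to the ob/+ pool (horizontal axis) for the 37 lysosomal genes, by class and in order of fold change, with open points for the 3 ob/+ and filled points for the 3 ob/ob samples. A plus or minus after a name marks a gene called higher or lower, and in every pump row the 3 ob/ob points lie to the right of the 3 ob/+ points.

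Markers of some cell types differed between the groups as well. Over all genes, 12.4% were called higher and 12.1% lower. Of 12 macrophage markers, 10 were called higher and none lower. Their median log2 ratio to the pool was -0.09 to 0.11 in the ob/+ samples and 0.76 to 1.63 in the ob/ob samples. Of 8 tested adipocyte markers, 4 were called lower and none higher, with medians of -0.18 to 0.09 in ob/+ and -1.03 to -0.34 in ob/ob. Of 11 markers of epididymal and duct epithelium, 8 were called lower and none higher. Their medians were -0.65 to 0.18 in ob/+ and -4.32 to -3.92 in ob/ob. Of 3 mesothelial markers 1 was called lower, with medians of -0.23 to 0.09 in ob/+ and -1.65 to -0.12 in ob/ob. Of 3 endothelial markers none was called, with medians of -0.07 to 0.06 in ob/+ and -0.11 to 0.17 in ob/ob. No marker in these 5 lists was at 0 in all samples, but neither was any other gene tested, so this does not show detection. Some markers were dim, such as Lcn5 at a mean intensity of 0.0642 and Upk3b at 0.116. Adipoq, which encodes adiponectin and marks adipocytes, had 27.04, 30.42 and 28.22 in ob/+ and 14.26, 11.69 and 10.20 in ob/ob. Their part in the lysosomal differences was not tested. In bulk tissue a change in the number of cells of a type and a change of RNA per cell cannot be told apart. Crisp1, an epididymal marker, had 4.93, 22.53 and 11.51 in ob/+ and 0.07, 0.07 and 0.08 in ob/ob. A difference between the groups in the tissue taken with the fat cannot be told apart from one of genotype.

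The macrophage markers and the lysosomal classes are set side by side here across the obese samples, and whether they are related was not tested. In the 3 ob/ob samples the median log2 ratio of the macrophage markers was 0.76, 1.63 and 1.30. In the same order, that of the pump subunits was 0.57, 0.54 and 0.59, and that of the hydrolases was 0.33, 0.42 and 0.48. The pump medians are too close for their order to be read, as those of the ob/+ samples spread from -0.15 to 0.08. Single subunits went both ways: Atp6v0a1 had 1.6, 1.97 and 2, and Atp6v1e1 had 0.94, 0.79 and 0.59. The ob/ob sample with the lowest macrophage markers also had the membrane median at -0.04, against 0.38 and 0.33 in the others. That -0.04 was the value of Cd63, and Mcoln1 and Ctns were also lowest in this sample. Scarb2 was highest in it, at 0.63 against 0.38 and 0.44, and Lamp2 lay between, at 0.39 against 0.46 and 0.33. The same sample had the highest adipocyte marker median of the ob/ob samples, -0.34 against -1.03 and -0.83.

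**Figure D2:**
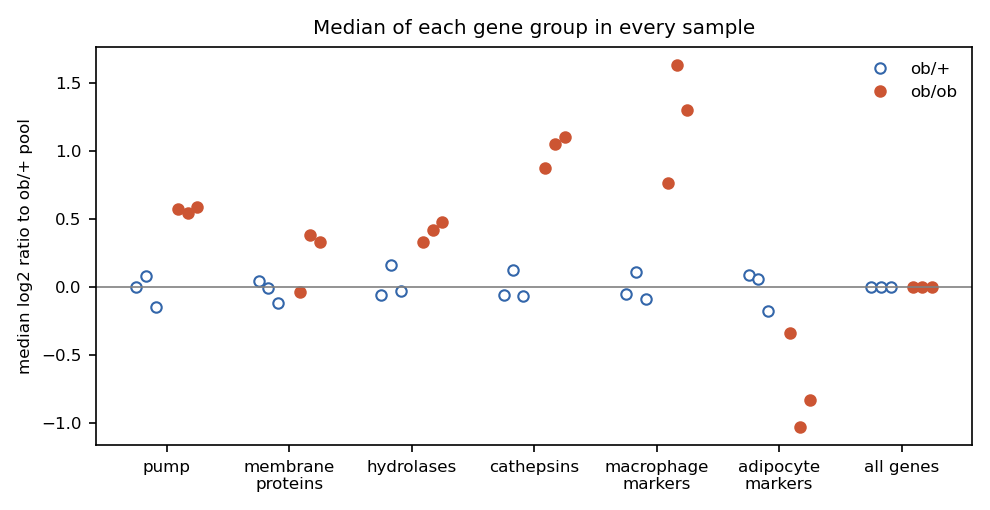
Median log2 ratio to the ob/+ pool (vertical axis) of each gene group in every sample, with open points for ob/+ and filled points for ob/ob. The pump medians of the ob/ob samples lie at 0.54 to 0.59, the macrophage markers spread from 0.76 to 1.63, adipocyte markers lie below 0 and the median of all genes lies at 0.

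The V0 sector of the pump, the proton channel in the membrane, had the single largest rise. Atp6v0a1, the a subunit that forms the proton path with the ring and helps to place the pump, had intensities of 3.84, 3.54 and 3.23 in the ob/+ samples and of 10.03, 14.55 and 15.13 in the ob/ob samples. The lowest ob/ob sample was well above the highest ob/+ sample. It rose 3.60-fold (1.85 ± 0.12 on the log2 scale, where errors are SEs of 3 samples per group, with a limma adjusted p of 0.00287).

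The other V0 subunits moved less. Atp6v0e, a small membrane subunit, had 12.83, 15.67 and 13.05 in ob/+ and 21.34, 19.81 and 24.26 in ob/ob. The groups did not overlap, and it rose 1.53-fold (0.61 ± 0.08, adjusted p = 0.01). A dimmer reporter of Atp6v0e, at a mean intensity of 0.0667, stood at -0.14 on the log2 scale and did not pass (adjusted p = 0.225). Atp6v0d1, the subunit that joins the ring to the central stalk, rose 1.36-fold (0.44 ± 0.04, adjusted p = 0.00461). Atp6v0c, the main subunit of the proton-carrying ring, had 2.72, 2.50 and 2.00 in ob/+ and 2.99, 4.38 and 4.64 in ob/ob. Its fold change of 1.52 did not pass (95% interval of the log2 fold change 0.21 to 1.00, adjusted p = 0.0525), and 1 ob/ob sample was close to the ob/+ samples.

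Atp6v0b, the other ring subunit of this set, had the smallest V0 rise. Its intensities were 0.23, 0.29 and 0.23 in ob/+ and 0.37, 0.30 and 0.40 in ob/ob, so the lowest ob/ob sample was 1 step of 0.01 above the highest ob/+ sample. It rose 1.33-fold (0.41 ± 0.09, adjusted p = 0.0403), and the call held in only 1 of the 6 fits that left out an array, that without ob/ob replicate 2 (highest adjusted p 0.127).

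In the V1 sector the catalytic head had the largest rises by the brightest reporters. Atp6v1a, the A subunit that carries the ATP-splitting site, had 0.09, 0.08 and 0.09 in ob/+ and 0.22, 0.25 and 0.22 in ob/ob. The samples of each group were nearly equal and the groups far apart, at a 2.75-fold rise (1.46 ± 0.02, adjusted p = 0.000277). At these low intensities rounding to 0.01 can move the log2 fold change by up to 0.26, far more than the SE shows. With 0.1 added to both intensities it was 0.85. Atp6v1b2, the B subunit of the same head in its widely expressed form, had 4.79, 5.46 and 3.99 in ob/+ and 9.87, 10.59 and 12.05 in ob/ob. It rose 2.50-fold (1.32 ± 0.12, adjusted p = 0.00496), and a dimmer reporter also rose, by 0.46 ± 0.07 on the log2 scale (adjusted p = 0.0145). The value of that dimmer reporter was below those of Atp6v1e1 and Atp6v1c1, described next.

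By the brightest reporters, the stalks of V1 followed at smaller sizes. Atp6v1e1, the E subunit of the outer stalk, rose 1.78-fold (0.83 ± 0.12, adjusted p = 0.014), and Atp6v1c1, the C subunit that holds V1 to V0, rose 1.74-fold (0.80 ± 0.10, adjusted p = 0.00995). Leaving out ob/+ replicate 1, ob/+ replicate 3 or ob/ob replicate 2 ended the call of Atp6v1e1 (highest adjusted p 0.0589). The remaining V1 subunits had positive values and passed no test. Atp6v1h, a regulatory subunit, was at 0.45 on the log2 scale (95% interval 0.04 to 0.86, adjusted p = 0.12), and Atp6v1g1, of the outer stalk, 0.40 (0.09 to 0.72, adjusted p = 0.0852). Atp6v1f and Atp6v1d, of the central stalk, had 0.28 (0.06 to 0.49, adjusted p = 0.0838) and 0.26 (0.06 to 0.46, adjusted p = 0.0762). For Atp6v1d, the smallest of the sector, the ob/+ intensities were 2.90, 3.26 and 2.93 and the ob/ob intensities 3.36, 3.83 and 3.34. The groups did not overlap but were close, and its other reporter had a similar value of 0.24 (adjusted p = 0.11).

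The 2 accessory proteins, which help to assemble and sort the pump, were split. Atp6ap2, also known as the prorenin receptor, had 3.07, 3.02 and 2.61 in ob/+ and 3.85, 5.76 and 4.98 in ob/ob. It rose 1.61-fold (0.69 ± 0.15, adjusted p = 0.0382), and of the fits without 1 array, only that without ob/ob replicate 1 kept the call (highest adjusted p 0.124). Atp6ap1 had 0.35, 0.28 and 0.24 in ob/+ and 0.37, 0.39 and 0.34 in ob/ob. Its intensities overlapped and it did not pass (0.34, 95% interval 0.03 to 0.64, adjusted p = 0.123).

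Several pump subunits have alternative forms encoded by separate genes, with tissue-restricted expression. Of 10 such subunits and forms outside the set, 2 were called higher and none lower, with a median log2 fold change of 0.09. Over all genes, 12.4% were called higher and 12.1% lower. Atp6v0d2, the form of the d subunit known from osteoclasts and macrophages, had 0.17, 0.19 and 0.14 in ob/+ and 1.17, 3.89 and 3.63 in ob/ob. Its lowest ob/ob sample was several times the highest ob/+ sample, and the gene rose 12.7-fold (3.67 ± 0.46, adjusted p = 0.00916). Tcirg1, which encodes the a3 form of osteoclasts and macrophages, had 0.65, 0.52 and 0.56 in ob/+ and 1.17, 2.00 and 2.57 in ob/ob. It rose 2.98-fold (1.57 ± 0.27, adjusted p = 0.0189), a call kept by only 1 fit without an array, that without ob/ob replicate 1 (highest adjusted p 0.073). For both genes the lowest ob/ob value was in the sample with the lowest macrophage markers. Among the ob/ob samples, that sample also had the highest medians of the adipocyte markers (-0.34) and the mesothelial markers (-0.12). Whether any of these orders are related was not tested.

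The remaining forms passed no test. Atp6v1b1, the B form of acid-secreting epithelium, named here as the other form of Atp6v1b2 and not for its p, was at -0.03 ± 0.18 on the log2 scale (adjusted p = 0.976). Atp6v1c2 had 0.14, 0.43 and 0.17 in ob/+ and 0.08, 0.08 and 0.06 in ob/ob, with a log2 fold change of -1.54 ± 0.48 (adjusted p = 0.0906). Atp6v0e2 had -0.51 ± 0.20 (adjusted p = 0.154). The 6 markers of acid-secreting epithelial cells, 3 of them pump forms, had mean intensities of 0.04 to 0.228, and none was called. Their median log2 ratios were -0.25 to 0 in ob/+ and -0.29 to -0.1 in ob/ob.

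**Figure D3:**
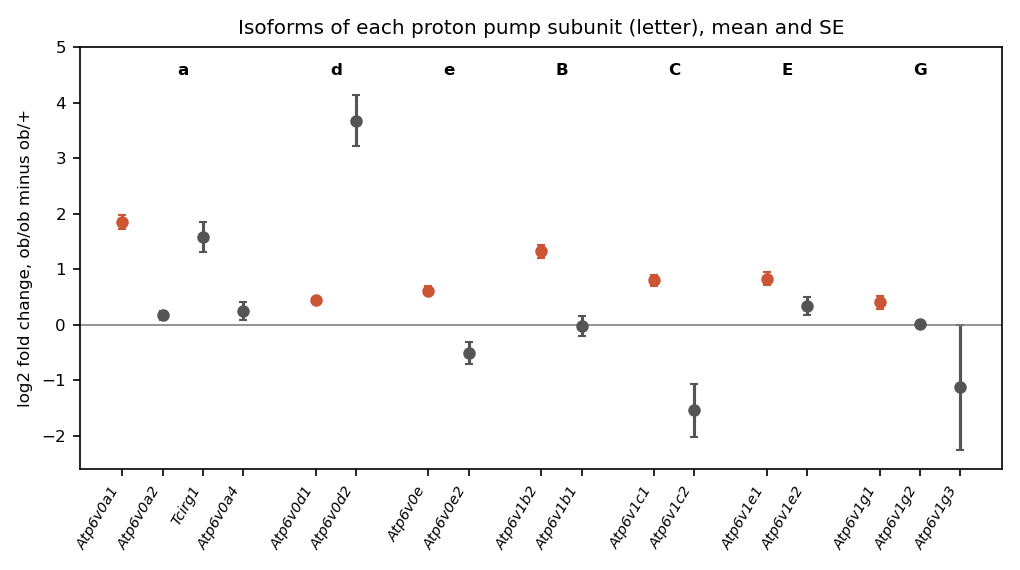
Log2 fold change of ob/ob over ob/+ (vertical axis, mean and SE, n = 3 per group) of the genes encoding each pump subunit, whose letter is above them, with set members in orange and other forms in grey. In subunit d the grey Atp6v0d2 lies at 3.67, against 0.44 for Atp6v0d1, and in subunit a Tcirg1 lies at 1.57 beside Atp6v0a1 at 1.85.

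The membrane proteins changed little. Scarb2, which encodes LIMP-2, a membrane protein that carries cargo to the lysosome, had 15.22, 14.20 and 14.18 in ob/+ and 22.08, 18.81 and 20.76 in ob/ob. The groups did not overlap and it rose 1.42-fold (0.50 ± 0.09, adjusted p = 0.0195). A dimmer Scarb2 reporter, at a mean intensity of 0.04, had a log2 fold change of 0.00. Lamp2, an abundant membrane glycoprotein with a form that serves chaperone-mediated autophagy, had 4.76, 5.55 and 4.43 in ob/+ and 6.13, 6.81 and 6.24 in ob/ob. It rose 1.33-fold (0.41 ± 0.06, adjusted p = 0.0127). Leaving out any of the 3 ob/+ arrays, or ob/ob replicate 3, ended the Scarb2 call (highest adjusted p 0.0669), and leaving out ob/+ replicate 1 ended that of Lamp2 (0.0541).

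Cd63, a tetraspanin of late endosomes and lysosomes, overlapped between the groups. It had 28.40, 27.49 and 25.83 in ob/+ and 25.53, 38.08 and 36.80 in ob/ob, so 1 ob/ob sample was below every ob/+ sample and the other two above. Its log2 fold change was 0.29 (95% interval -0.09 to 0.66, adjusted p = 0.243). Mcoln1, the calcium channel of the lysosome, had 0.40, 0.31 and 0.25 in ob/+ and 0.26, 0.29 and 0.28 in ob/ob. With a log2 fold change of -0.23 (-0.62 to 0.17, adjusted p = 0.374) it was the lowest of the class, and its promoter stretch is one of those with 2 E-boxes. A dimmer reporter had 0.11 ± 0.12. Ctns, the cystine exporter, had -0.10 (-0.22 to 0.02, adjusted p = 0.219).

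Of the hydrolases and cofactors, 8 rose, 1 fell and 7 passed no test. Gusb, the beta-glucuronidase of glycosaminoglycan breakdown, had 0.61, 0.74 and 0.46 in ob/+ and 1.5, 1.94 and 2.17 in ob/ob. Every ob/ob sample was far above the highest ob/+ sample, and it rose 3.21-fold (1.68 ± 0.22, adjusted p = 0.00976). Psap, the precursor of the saposins that present sphingolipids to their hydrolases, had 0.13, 0.16 and 0.13 in ob/+ and 0.29, 0.36 and 0.46 in ob/ob. It rose 2.55-fold (1.35 ± 0.17, adjusted p = 0.00931), where rounding can move the log2 fold change by up to 0.17.

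The other 6 rises were smaller. Man2b1, the lysosomal alpha-mannosidase, rose 1.94-fold (0.96 ± 0.18, adjusted p = 0.024). Hexa, the alpha subunit of beta-hexosaminidase, which degrades ganglioside GM2, had 18.81, 18.67 and 17.34 in ob/+ and 29.80, 38.30 and 39.55 in ob/ob. It rose 1.83-fold (0.87 ± 0.10, adjusted p = 0.00817). Naglu and Sgsh, both of heparan sulfate breakdown, rose 1.64-fold (0.71 ± 0.13, adjusted p = 0.0215) and 1.59-fold (0.67 ± 0.09, adjusted p = 0.0105). Glb1, the beta-galactosidase, rose 1.59-fold (0.67 ± 0.15, adjusted p = 0.0405), with a second reporter at 0.42 ± 0.11 (adjusted p = 0.059). Tpp1, a peptidase, rose 1.45-fold (0.53 ± 0.09, adjusted p = 0.0174).

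The calls of Gusb, Psap, Hexa and Sgsh held in all 6 fits that left out 1 array. Leaving out ob/+ replicate 1, ob/+ replicate 3 or ob/ob replicate 3 ended those of Man2b1 and Naglu, and so did ob/ob replicate 2 for Man2b1 and ob/ob replicate 1 for Naglu (highest adjusted p 0.0882 and 0.0788). The call of Glb1 was kept in only 1 of these fits, that without ob/+ replicate 2 (highest adjusted p 0.132). That of Tpp1 was kept only without ob/+ replicate 3 and without ob/ob replicate 1 (highest adjusted p 0.0701).

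Arsb, the sulfatase of dermatan and chondroitin sulfate, was the 1 gene of the set that fell. It had 0.86, 1.02 and 0.82 in ob/+ and 0.49, 0.66 and 0.59 in ob/ob, with no overlap, and fell by 0.54 ± 0.11 on the log2 scale (adjusted p = 0.0267). The other 2 reporters of Arsb, both dimmer, had -0.85 ± 0.34 and -0.33 ± 0.31 and passed no test (adjusted p = 0.17 and 0.501). Among the fits without 1 array, only that without ob/ob replicate 2 kept the call (highest adjusted p 0.0967).

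The other 7 enzymes did not pass. Gaa, the acid alpha-glucosidase that degrades glycogen, had 13.06, 12.65 and 12.94 in ob/+ and 12.68, 11.01 and 13.22 in ob/ob (-0.05, 95% interval -0.30 to 0.19). Neu1, the sialidase, had -0.12 (-0.53 to 0.29), and Ppt1, which removes palmitate from proteins, 0.08 (-0.29 to 0.45). Idua, the iduronidase, had 0.08 (0.02 to 0.15), and Arsa, the sulfatidase, 0.17 (-0.08 to 0.42). Their intervals leave out a rise of 1.5-fold. Galc, the galactosylceramidase, had -0.02 (-0.12 to 0.08), while its dimmer reporter, at a mean intensity of 0.0525, was called higher (0.55 ± 0.13, adjusted p = 0.0455). Gla, the alpha-galactosidase, had a mean intensity of 0.0102, about 1 rounding step, and its value of 0.22 (-0.25 to 0.68) carries no size.

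The authors' deposited table also gives a p-value for the 2 channels of each array. By those values, 14, 19 and 22 of the 37 genes were above the pool at a p under 0.05 in the 3 ob/ob samples, where 12.6% to 13.1% of all genes were, and 2, 1 and 1 were below it, where 11.8% to 13.7% were. In the ob/+ samples, by the same p-values of the authors' deposited table, none of the 37 were above the pool, where 0.378% to 1.53% of all genes were. In 1 of these samples 2 were below it, where 2.27% of all genes were, and in the other two none were.

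Other lysosomal genes were counted in the same way. For each list below, the shares over all genes are 12.4% called higher and 12.1% lower. The lists were chosen with earlier results of these data known. Of 22 further membrane and sorting proteins, 8 were called higher and 1 lower, with a median log2 fold change of 0.29. Slc36a1, a proton-coupled amino acid exporter, rose 2.41-fold (1.27 ± 0.14, adjusted p = 0.00737), with a dimmer reporter at -0.03, and Ostm1, the partner of the chloride transporter ClC-7, rose 1.49-fold (0.57 ± 0.06, adjusted p = 0.00573). M6pr, a mannose 6-phosphate receptor, rose by 0.35 ± 0.05 (adjusted p = 0.0121) and Mcoln2, at a mean intensity of 0.0483, by 1.4 ± 0.22 (adjusted p = 0.0164) on the log2 scale. Leaving out ob/+ replicate 1 or ob/ob replicate 3 ended the calls of M6pr and Mcoln2 (highest adjusted p 0.0514 and 0.0704), and leaving out ob/+ replicate 3 also ended that of Mcoln2. Sort1, the sortilin sorting receptor, was the 1 called lower (-0.61 ± 0.12, adjusted p = 0.0262) and is named after its value was seen.

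Of 25 further hydrolases and cofactors, 12 were called higher and 1 lower, with a median of 0.42. Asah1, the acid ceramidase, rose 1.59-fold (0.67 ± 0.08, adjusted p = 0.00817). Dnase2a, the acid DNase, went the other way, with 18.34, 17.38 and 18.19 in ob/+ and 6.12, 5.85 and 6.08 in ob/ob. The samples of each group lay close together, and it fell by 1.65 ± 0.05 on the log2 scale (adjusted p = 0.000721). Without 1 array in turn, 6 to 21 of the 57 genes of the 3 further lists were called higher, against 22 on all arrays. In the same fits 5.95% to 11.2% of all genes were called higher, against 12.4%. With ob/+ replicate 1, 2 or 3 left out the count was 6, 14 or 9 (5.95%, 8.99% or 6.62% of all genes), in that order. With ob/ob replicate 2 or 3 left out it was 8 or 9 (8.31% or 6.26%).

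The cathepsins, the lysosomal proteases, had a higher median than any class of the set, 1.00, with 6 of 10 called higher and 1 lower. Among those with the lowest p, Ctss rose by 2.78 ± 0.29, Ctsb by 1.81 ± 0.20, Ctsd by 1.77 ± 0.13 and Ctsk by 1.5 ± 0.16 on the log2 scale. The 1 called lower, named after its value was seen, was Ctso (-0.43 ± 0.08, adjusted p = 0.0228).

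Tfeb, the transcription factor of the set, gave a different answer from each of its 2 reporters. The brighter one had 8.61, 7.71 and 9.48 in ob/+ and 7.02, 7.30 and 7.75 in ob/ob, and its log2 ratios overlapped (-0.15, 95% interval -0.38 to 0.09, adjusted p = 0.346). The dimmer one had 1.76, 2.00 and 1.92 in ob/+ and 3.76, 3.09 and 3.10 in ob/ob, without overlap, and rose 1.66-fold (0.73 ± 0.07, adjusted p = 0.00504). Its call held in all 6 fits that left out 1 array. Which transcript each reporter binds is not given in the sources used here, so no direction is given for the gene.

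**Figure D4:**
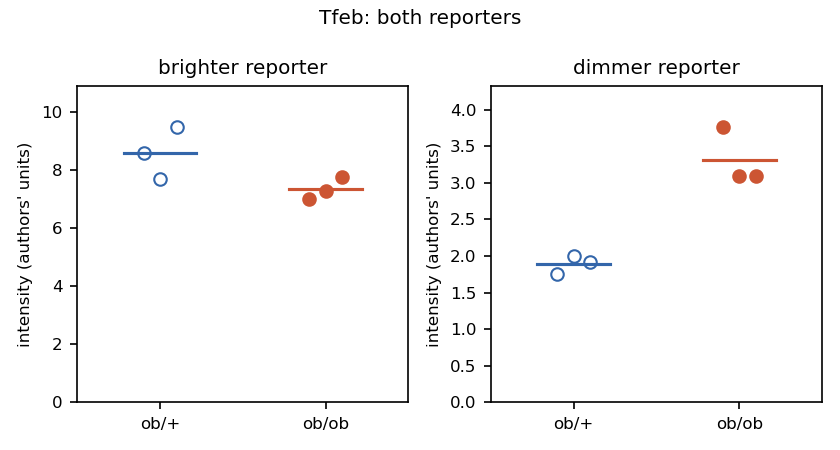
Intensity in the authors' units (vertical axes, from 0) of the 2 Tfeb reporters in each sample, with open points for ob/+, filled points for ob/ob and a line at each group's mean. The brighter reporter averages 8.60 in ob/+ and 7.36 in ob/ob, and the dimmer one 1.89 and 3.32.

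Of 13 relatives of Tfeb and genes of the nutrient signalling that controls it, 6 were called higher and 1 lower. Rragc, a Rag GTPase that holds TFEB at the lysosome, rose 1.52-fold (0.60 ± 0.07, adjusted p = 0.00722), and the scaffold genes Lamtor1 and Lamtor3 rose by 0.68 ± 0.11 (adjusted p = 0.0158) and 0.28 ± 0.04 (adjusted p = 0.0108) on the log2 scale. Rragd fell by 0.25 ± 0.05 (adjusted p = 0.0213). The relatives of Tfeb are named with their values known. Tfe3 rose 1.59-fold (0.67 ± 0.13, adjusted p = 0.0258), and Mitf, with a log2 fold change of 0.79 ± 0.21, did not pass (adjusted p = 0.06). Tfec, at a mean intensity of 0.0908, rose by 0.79 ± 0.18 (adjusted p = 0.0383). For Tfe3 and Tfec, of the fits without 1 array only that without ob/ob replicate 1 kept the call (highest adjusted p 0.0892 and 0.126). Leaving out ob/+ replicate 1 ended the calls of Lamtor1 and Rragd, as did either of ob/ob replicates 1 and 3, and so did ob/+ replicate 3 for Lamtor1 and ob/+ replicate 2 for Rragd (highest adjusted p 0.0679 and 0.0761).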

How the data were processed

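Per the submitters' processing notes, scans were quantified in Agilent Feature Extraction 8.5.1.1. The authors deposited a linear intensity of each channel, already normalized, and a p-value of the 2 channels. How background, normalization and the p-value were computed is not given in the sources used here. Of the intensities, 97.45% come in steps of 0.01. The log10 ratios of the deposited series matrix are of the sample over the pool, per the values. Columns of the intensity table were assigned to groups only, because its sample numbers differ from the labels' replicate numbers. Fits that need that number used the series matrix.

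Symbols were updated through a RefSeq gene table. log2 ratios of sample over pool went into limma 3.58.1 under R 4.3.3, by lmFit and eBayes with the default prior, ob/ob minus ob/+, two-sided, for 39407 reporters with 2 or more values per group, and adjusted over them by Benjamini-Hochberg. The fit was tested on simulated data. Named genes are all members, with per-sample values for the extremes of each class, and up to 4 genes with the lowest p of each other lysosomal list, of which 2 are not reported here. Atp6v1b1, Tfe3, Mitf, Tfec, Sort1, Ctso and Adipoq were named outside this rule, with their values known. Marker lists are given by counts and median log2 ratios. The members and lists were chosen with earlier results of these data known. Alternatives were other normalizations, sample channel alone, filters on dim reporters, a pseudocount of 0.1, other reporter rules, another prior, array weights, a replicate block, a 1.5-fold minimum and leaving out each array. The number of arrays limits the precision. Figures were made in Python 3.11.15 with matplotlib 3.10.9.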

Additional observations from a re-analysis of the deposited data

How the results depend on the processing

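Quantile normalization of the log2 ratios gave the largest losses. It left 738 of 8225 called reporters, 2 members called higher (2 pump subunits, 0 membrane proteins, 0 hydrolases), 0 called lower, 1 further lysosome gene, and a pump median of 0.39 in place of 0.60. In that setting 1.18% of all genes were called higher and 0.944% lower. The cause of the losses was not tested. With the replicate number as a block, the counts were 3333 reporters, 11 members called higher, 2 hydrolases and 7 further lysosome genes, while 7 pump subunits and 2 membrane proteins were called. In that fit 5.07% of all genes were called higher. Over all reporters, the deviations of same-numbered samples from their group means had correlations of 0.06, -0.06 and 0. These show no shared deviation, but cannot tell whether the samples were paired by design. With a minimum of 1.5-fold, 4724 reporters, 14 further lysosome genes, 0 membrane proteins and 0 falling members were called. At that minimum 7.28% of all genes were called higher and 7.39% lower. With the sample channel alone 1 membrane protein was called, where 7.36% of all genes were called higher. Without dim reporters, by either filter, the hydrolase median was 0.53 in place of 0.37, as Gla left the test. With the mean of all reporters of a gene the pump median was 0.45, 0 members were called lower (13.1% of all genes) and Tfeb had 0.29. With the dimmest reporter the medians were 0.45 (pump), 0.11 (membrane) and 0.48 (hydrolases). There 1 membrane protein was called higher (11.7% of all genes) and 0 members lower (11.2%). The dimmest reporters of Atp6v0e, Scarb2, Galc, Tfeb and Slc36a1 had -0.14, 0.00, 0.55, 0.73 and -0.03. Leaving out 1 array gave 4127 to 6960 reporters, 10 to 18 members higher and 0 to 1 lower, 6 to 9 pump subunits, 0 to 3 membrane proteins, 4 to 7 hydrolases, 6 to 21 further lysosome genes, and medians of 0.51 to 0.65 (pump), 0.21 to 0.41 (membrane) and 0.29 to 0.46 (hydrolases). In these fits 5.95% to 11.2% of all genes were called higher. Of the 20 called members, 10 kept their call in all 6 of these fits and 2 after quantile normalization.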
